A study of Mus musculus with 388 samples.

Results

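Tomato+ marrow stromal cells that express the leptin receptor gene Lepr made up 47 cells of one column set (KT) and 110 of another (zBo), among the 388 cells of this single-cell RNA sequencing study. Members were chosen by their measured Lepr level: Tomato+ cells were kept with at least 1000 genes with a count, at least 10000 counts, and Lepr at 1000 CPM or more, where CPM is the count scaled by the cell's own total. Of the Tomato+ cells with enough genes and counts, 84.9% reached the Lepr level (exact Clopper-Pearson 95% interval 78.9 to 89.7). KT and zBo are the beginnings of the deposited column names, and both sets were described separately. The KT columns held 47 members of 48 Tomato+ cells (97.9%, 88.9 to 99.9). In the zBo columns 80.3% of the cells that passed the filter were members (72.6 to 86.6) and 27 fell under the level. By title set, KT P1 held 24, KT P2 held 23, zBo P1 held 86, zBo P3 held 24 and zBo P2 held 0 of its 5 cells.

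The study asked how Kit signalling in fetal bone marrow acts on precursors of skeletal stem cells. Cells came from the bone marrow of C57BL/6 mice aged 2 months that carry both KitMerCreMer, a tamoxifen-dependent Cre driven from Kit, and R26tdTomato, a red reporter that Cre switches on for good. Tamoxifen was given at embryonic days 12.5 and 14.5, so that red cells (Tomato+) descend from cells in which Kit was active at those times. Tomato- cells came from mice with the same alleles and treatment, and the labels do not say whether from the same animals. Both groups were sorted as PDGFRα+ and free of CD45, Ter119 and CD31, the surface markers of blood, erythroid and endothelial cells. A precursor in which Cre was not activated leaves Tomato- progeny, so Tomato- cells need not lack such an ancestor. No animal is named in the labels: each group counts as 1 sample, cells are not replicates, no test was made, and no difference below has a replicate check.

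Leptin receptor-expressing stroma lines the marrow sinusoids and arterioles and is the main adult source of the chemokine CXCL12 and of stem cell factor, the Kit ligand, both of which keep blood-forming stem cells in the marrow. The same cells contain precursors of marrow fat cells and of bone-forming cells, and they carry transcripts of both lineages while being neither. Leptin itself signals through Lepr to the kinase JAK2 and the transcription factor STAT3, a route shared with cytokines of the interleukin-6 family.

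The members held 154609 to 1224751 counts per cell in KT (median 655575) and 18031 to 3833473 in zBo (median 866872), with medians of 4442 and 4414 genes with a count. The set zBo P3 stood apart before any comparison: its members had a median of 3398 genes against 4516 in zBo P1, and Cxcl12 at a median of 27083 against 49057 CPM. It also differed in sex-linked reads, with 16 of 24 members carrying Xist reads alone, whereas 55 of the 86 zBo P1 members, 19 of 24 in KT P1 and 20 of 23 in KT P2 carried Y-linked reads alone. Sex, sort and set therefore cannot be told apart within zBo, and counts of variable genes are given with and without zBo P3. The zBo columns carry 12 library codes and 24 index numbers; every index recurs under several codes, 0 code and index pairs were repeated, and 0 columns were identical.

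The 7 marker genes showed a largely uniform stromal identity. Lepr, on which the choice rests, ran from 1087 to 10127 CPM in KT (median 4051) and from 1172 to 12898 CPM in zBo (median 3810). The cells just under the level had 919, 934, 942 and 976 CPM of Lepr, and those just over it 1087, 1172, 1202 and 1211. All 4 cells just inside had Cxcl12 between 48925 and 76530 CPM, and 2 of the 4 just outside, both in zBo P1, lay within that range at 53592 and 57046 CPM. The level thus divides a continuous range of Lepr.

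Cxcl12, the chemokine that holds blood stem cells in the marrow, took the largest share of counts and was among the most even transcripts. It ran from 22609 to 90479 CPM in KT with a median of 52826 (coefficient of variation over cells, CV, 0.27). In zBo it ran from 84.1 to 84400 CPM with a median of 46008 (CV 0.34, and 0.24 in zBo P1 alone). This 1 gene took 5.41% of all counts in KT and 4.52% in zBo. Kitl, the gene of stem cell factor, ran from 414 to 3837 CPM around a median of 1442 in KT (CV 0.48) and from 7.42 to 8859 around 1559 in zBo (CV 0.78). Its spread was wider than that of Cxcl12 in both column sets.

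The remaining markers differed in how evenly they were expressed. Adipoq, the adipocyte hormone adiponectin, ran from 439 to 11552 CPM in KT (median 3104, CV 0.63) and from 9.9 to 11915 in zBo (median 2413, CV 0.76). Vcam1, an adhesion molecule for blood cells, ran from 1597 to 29055 CPM in KT (median 4805, CV 0.83) and from 58.6 to 19650 in zBo (median 5188, CV 0.65). Hp, which encodes the haemoglobin-binding protein haptoglobin, had medians of 3718 CPM in KT and 7839 in zBo (CVs 0.75 and 0.66). Gas6, a ligand of TAM receptor kinases, had medians of 4051 and 2983 CPM (CVs 0.45 and 0.53). In zBo P1 alone the CVs were 0.65 for Kitl, 0.73 for Adipoq, 0.57 for Vcam1, 0.60 for Hp and 0.45 for Gas6. All 6 markers other than Lepr lay above 10% of their median in 46 of 47 KT members and in 98 of 110 zBo members. By set the latter were 82 of 86 in zBo P1 and 16 of 24 in zBo P3.

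**Figure D1:**
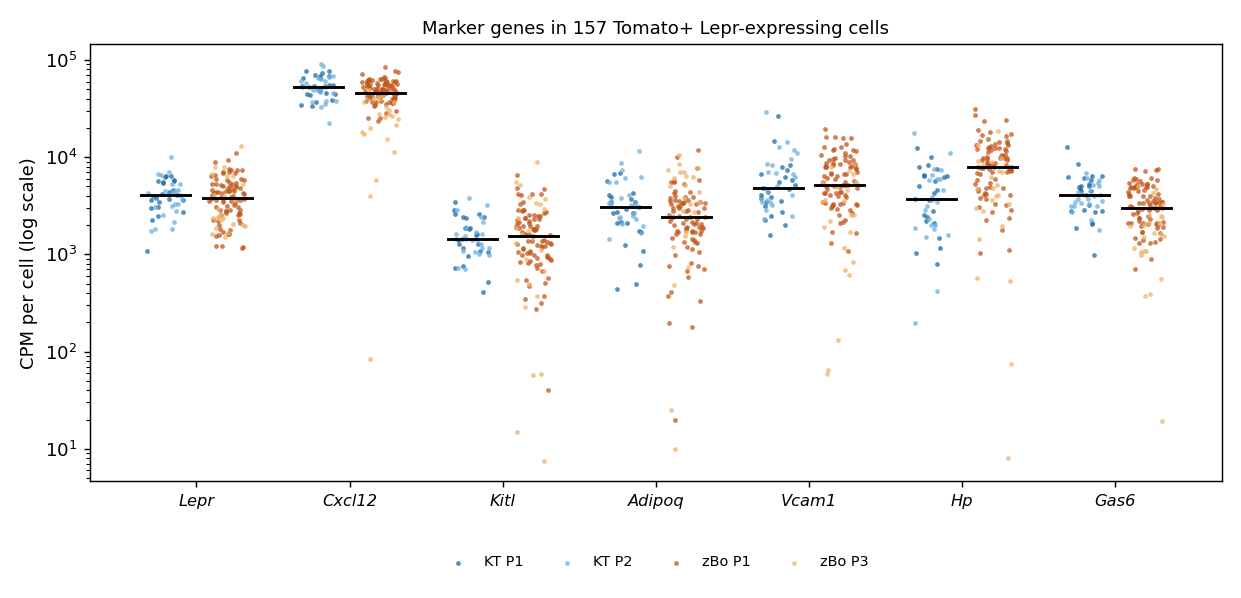
Level of the 7 marker genes in each of the 47 KT and 110 zBo member cells, in CPM on a log scale; each point is 1 cell, coloured by title set, and black bars are the medians of the KT and zBo cells. Cxcl12 forms the tightest and highest column, with medians of 52826 and 46008 CPM, and the lowest points of Cxcl12, Kitl and Hp, at 84.1, 7.42 and 8.04 CPM, belong to 1 zBo P3 cell.

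A pair of members, both in zBo P3, had at least 4 of the other markers under 10% of the median and Cxcl12 under 5000 CPM, so for them the stromal label rests on Lepr and few other markers. The first had Lepr at 2024 but Cxcl12 at 84.1 CPM. Its leading transcripts were those of fibrous connective tissue, with Dcn (decorin) at 73223, Lum (lumican) at 5784, Fmod (fibromodulin) at 3853, Aspn (asporin) at 3799 and Gsn (gelsolin) at 7700 CPM. The second had 2109 genes, Lepr at 1674, Cxcl12 at 3987 and Ibsp, a bone matrix sialoprotein, at 112613 CPM. Where they move a result, the value without them is given.

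The genes of the sorting antigens were mostly present or absent as the gate asks, with zBo P3 lowest in Pdgfra. Pdgfra, the gene of the antigen used for sorting, had a median of 326 CPM in KT and 205 in zBo, with at least 5 counts in 93.6% and 76.4% of cells. In zBo P3 its median was 18.6 CPM. Counts of Ptprc, the CD45 gene, were present in 1 of 47 KT members (2.13%, 0.0539 to 11.3) and in 0 of 110 zBo members, which allows a share of up to 2.73% by a limit of 3 counts and 3.30% by the exact interval. For Pecam1, the CD31 gene, they were present in 9 KT and 17 zBo members, and the highest cell had 153.6 CPM. Intervals and limits cover counting error only, since the reads were amplified and carry no molecular identifiers.

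Summed markers of most other cell types were low beside the stromal list, and those of Sca1+ fibroblast-like cells were not. The 22 genes of the Lepr+ stroma list summed to a median of 92740 CPM per cell in KT (55640 to 140135) and 90661 in zBo (5734 to 125466), and 20 of the 22 had at least 5 counts in 50% or more of the cells of each set. The 14 endothelial genes summed to medians of 48.5 and 10.5 CPM, with highest cells of 716 and 1389. Eng, which stroma also expresses, was the only one with a mean of 50 CPM or more in both sets. The 17 myeloid genes had medians of 18.5 and 5.06 CPM (highest 769 and 593), and Adgre1, a macrophage marker, had no count in either set. The lymphoid, megakaryocyte and skeletal muscle lists had medians of 0, and Cd3g, Cd8a, Ms4a1, Itga2b, Gp9, Myod1 and Pax7 had no count. The highest megakaryocyte sums were 272 and 1631 CPM. The 14 Sca1+ fibroblast-like genes summed to medians of 2877 and 4130 CPM with highest cells of 9956 and 42699, and of these Sfrp4, a secreted Wnt antagonist, alone had medians of 2665 and 3606. Their part in the results was not tested. The 11 erythroid genes summed to medians of 76.9 and 1.38 CPM with highest cells of 3001 and 966. Pericyte and smooth muscle genes summed to medians of 189.1 and 312 CPM, and cell cycle genes to 80.4 and 9.95.

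Per kilobase of exon, which allows levels to be compared between genes, the transcripts with the highest level in both sets encoded secreted proteins, antigen-presenting molecules and stress proteins. Cxcl12 stood at 7556 CPM per kilobase in KT and 6318 in zBo. Serpine2, a protease inhibitor, stood at 6647 and 6775, Ccl2, a monocyte chemokine, at 6637 and 6778, and Gpx3, a secreted glutathione peroxidase, at 6409 and 11191. On the same scale Lepr stood at 636 and 620 and Kitl at 294 and 308. Serping1 (C1 inhibitor), B2m, H2-D1 and H2-K1 (the class I antigen-presenting complex), Apoe, Cst3, Ftl1, Fos, Hspa8, Hp and Ibsp completed the first 15. The 10 most abundant genes together took 15.1% of counts in KT and 14.8% in zBo, and the first 100 took 39.7% and 37.2%. Few genes were seen in every cell: 457 had a count in all KT members and 170 in all zBo members.

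Fat and bone lineage genes were present side by side and covered only a part of each programme. Among 22 adipogenic genes, 6 had at least 5 counts in at least 50% of the cells of each set. They included Apoe (medians of 5969 and 5851 CPM), Adipoq and Agt, the gene of angiotensinogen (1683 and 1401), whereas Lep, Plin1 and Cidec, genes of mature fat cells, had no count in any member, which allows a share of cells with a count of up to 6.38% in KT and 2.73% in zBo by the limit of 3 counts. Pparg, the master regulator of fat cell formation, had 5 counts in 46.8% and 36.4% of cells. Among 22 osteogenic genes, 8 passed that mark, among them Ibsp (7397 and 9120 CPM), Sparc (3127 and 2744) and Spp1 (1954 and 4032), which encode bone matrix proteins. Sp7, a regulator of osteoblasts, had 5 counts in 8.51% and 13.6% of cells, Bglap (osteocalcin) in 2.13% and 5.45%, and Sost, an osteocyte gene, had no count. The summed levels of the adipogenic and osteogenic lists had Spearman correlations over cells of -0.18 in KT (n = 47) and -0.25 in zBo (110 members less 2 under 150000 counts), weak values over cells that share libraries.

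The transcription factors of the stroma had low levels. Ebf1 had medians of 304 and 434 CPM, and Runx1 had 439 and 434. Zeb2 had 141.7 and 315. Of the 20 factors listed, 11 reached a mean of 50 CPM in both sets, and 0 of these counted as variable or as steady by the measure below, which 3.31% and 3.9% of all genes did, so that 0 of 11 is near the share over all genes. Of the leptin and interleukin-6 family pathway, Stat3 had medians of 493 and 532 CPM, and Socs3, a feedback inhibitor of the receptor, had 1148 and 759. Jak2 had medians of 1.44 and 1.69 CPM, with at least 5 counts in 34% and 33.6% of cells.

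Variation from cell to cell was measured as the CV of CPM after each cell was thinned to 150000 counts, which kept all 47 KT members and left out 2 of the 110 zBo members. The CV was taken over all such cells of a column set. Differences between title sets and between library codes are therefore part of this spread. Since CV falls as the mean rises, each gene's log2 of the squared CV was set against the running median of genes of like mean. A gene was called variable when it lay at least 1 log2 unit above that median in both column sets, and steady when it lay at least 1 unit below in both. Of 2565 genes with a mean of at least 50 CPM in both sets, 85 were variable (3.31%) and 100 were steady (3.9%). Taken alone, KT had 7.31% variable and 7.08% steady of 3050 genes, and zBo 11.5% and 6.56% of 3292. Without zBo P3, 98 genes were variable and 4.56% steady. Without zBo P1, 49 were variable and 91 steady, and 38 of the 76 variable genes that could still be measured remained variable. The median CV over all 2565 genes was 1.16 in KT and 1.69 in zBo.

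**Figure D2:**
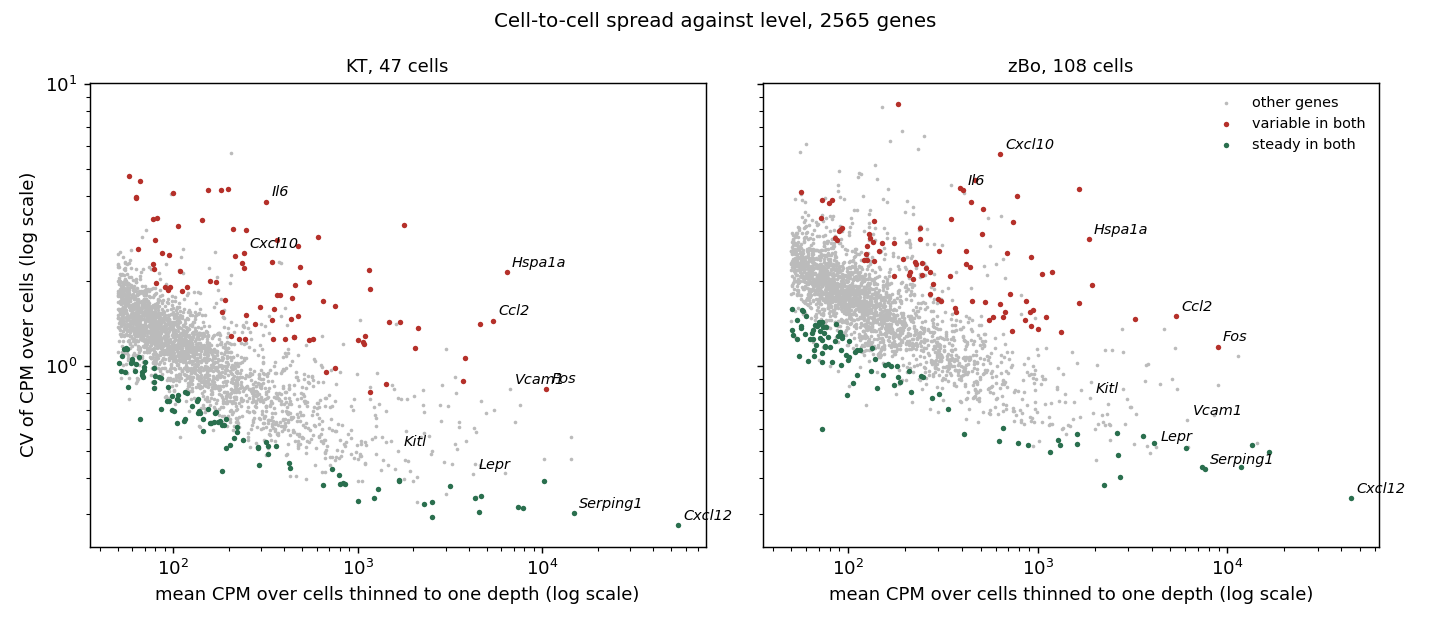
CV over cells against mean level in CPM, both on log scales, for 2565 genes in the KT members and in the zBo members after thinning; red points are the 85 genes called variable in both sets and green points the 100 called steady in both. Cxcl12 lies lowest at the right, and Il6, Hspa1a, Cxcl10 and Ccl2 lie far above genes of like mean.

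The steady genes included Cxcl12 and many housekeeping genes. Of the 21 stromal list genes of sufficient level 1 was steady, near the share of 3.9% over all genes. Cxcl12 had an excess of -2.10 in KT and -2.55 in zBo, that is, log2 units of squared CV under genes of like mean. Serping1 ran from 6014 to 28919 CPM in KT with a median of 14796 and from 181.04 to 18563 in zBo with a median of 7532, with CVs of 0.30 and 0.43. Tmem176b, Itm2b and Fstl1, a secreted glycoprotein gene, had CVs after thinning of 0.29, 0.33 and 0.32 in KT and 0.40, 0.38 and 0.48 in zBo. The translation factor gene Eif1, the ribosomal gene Fau, the respiratory chain gene Uqcrh, H2-D1 and the unannotated LOC100862446 were the others among the 10 lowest. In families named after these values were seen, 23 of 65 ribosomal protein genes and 14 of 44 respiratory chain genes were steady. So were 3 of 10 class I genes with B2m, and the share over all genes was 3.9%. In these families 0 genes were variable, against 3.31% of all genes, which for the smaller families is near that share. Lepr itself lay at -0.89 and -1.34, which the choice of cells by Lepr shapes.

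Variable genes were led by transcripts of acute responses. In descending order of the smaller excess, the first 10 were Il6, Sat1, Hspb1, Hspa1a, Gbp2, Timp3, Cxcl10, Cxcl9, Cxcl1 and Ccl7. They encode the cytokine interleukin-6, a polyamine acetylase, a small and an inducible large heat shock protein, an interferon-induced GTPase, a metalloprotease inhibitor and 4 chemokines. For most of them the median cell had few reads and a few cells had very many, as the plot of the 10 most variable genes shows. Some of these calls rest on 1 set, in values of the smaller excess: Sat1 fell from 3.80 to 0.41 without KT P2, Gbp2 from 3.53 to 0.23 without zBo P1 and 0.78 with Lepr at 2000 CPM, and Timp3 from 3.20 to -0.50 without zBo P1. Without zBo P1, Il6 missed the 50 CPM minimum mean and could not be measured, as did Cxcl9 without KT P2 and Gbp2 without KT P1.

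Il6 ran from 0 to 6018 CPM in KT with a median of 2.85 (CV 3.83) and from 0 to 15066 in zBo with a median of 6.17 (CV 4.25). The 5 highest cells held 96.9% of the summed per-cell CPM in KT and 73.4% in zBo. More than 1000 CPM was reached in 3 and 8 cells, and 35 of 47 and 57 of 110 cells had under 5 counts. Its summed level thus rests mostly on a few cells, more so in KT: 7 of 47 KT and 26 of 110 zBo members exceeded 100 CPM. Set to 0 below 1% of the highest count in their pool, as a guard against reads that stray between libraries, Il6 counts remained in 12.8% and 35.5% of cells.

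Interferon-inducible genes had the same shape, with a higher top cell among the 110 zBo than among the 47 KT members. Cxcl10, a chemokine for T cells, ran from 0 to 3573 CPM in KT (median 5.25) and from 0 to 34985 in zBo (median 5.52), where the single highest cell held 55.7% of its counts. Cxcl9 reached 1967 and 18996 CPM around medians of 0 and 8.36. Gbp2 reached 2785 and 16982 CPM around medians of 0 and 12.2. The second highest zBo cell of Gbp2, at 2457 CPM, lay under the KT top. Those of Cxcl10 and Cxcl9, at 14536 and 8168 CPM, lay above it. Over 100 CPM of Gbp2 was present in 7 of 47 KT and 43 of 110 zBo members. The zBo P3 members had the higher medians of Cxcl9 and Gbp2, 193.4 and 129.2 CPM against 5.57 and 8.66 in zBo P1, and the lower median of Cxcl10, 0.40 against 7.61 CPM.

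Among these 10, Hspa1a reached the highest single-cell level. Hspa1a, the inducible HSP70, ran from 22.3 to 76757 CPM in KT (median 750) and from 0 to 41530 in zBo (median 68.3). Above 1000 CPM were 22 of 47 KT and 28 of 110 zBo members. Hspb1 ran from 4.45 to 35121 CPM in KT (median 188.2) and from 0 to 19516 in zBo (median 17.9). The highest cells of both sets lay far above the rest for both genes.

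**Figure D3:**
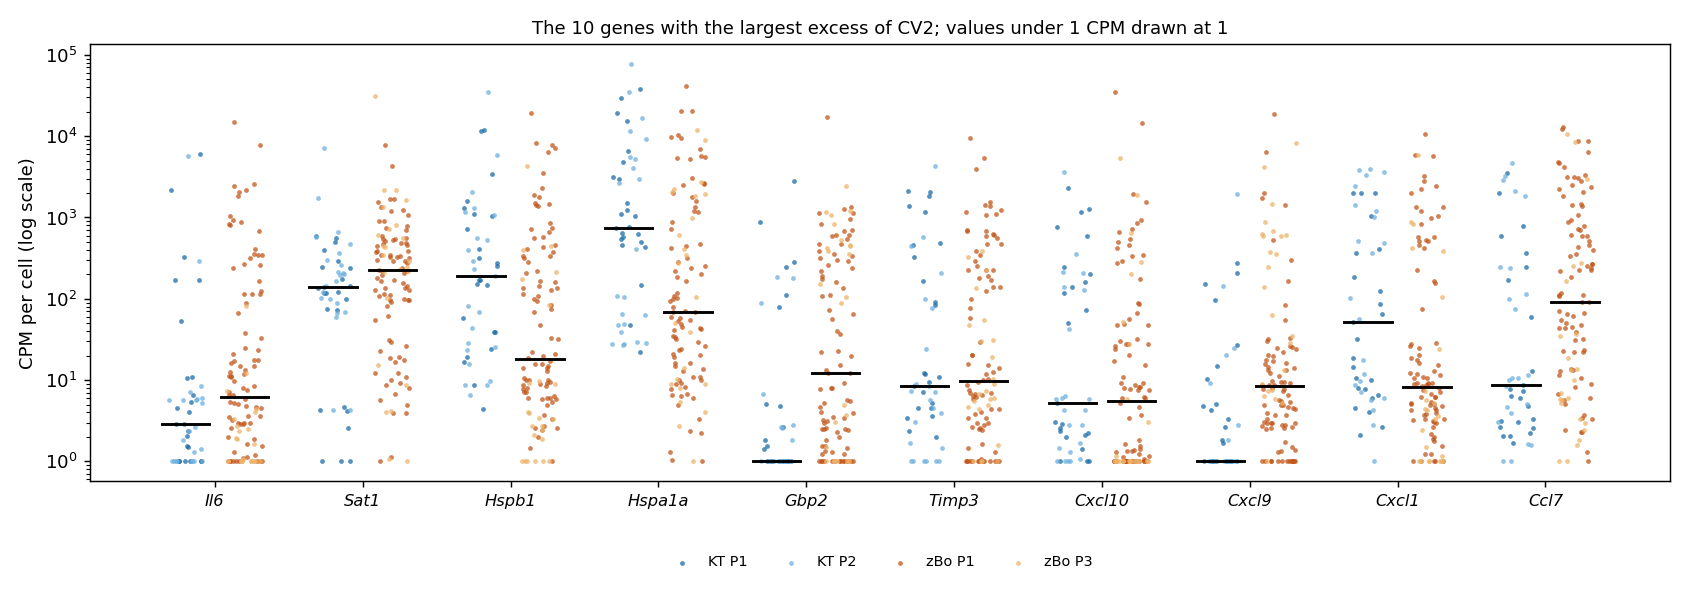
CPM per cell on a log scale for the 10 genes with the largest excess of squared CV, with values under 1 CPM drawn at 1; each point is 1 member cell, coloured by title set, and black bars are medians of KT and zBo cells. Il6 reaches 6018 CPM in KT and 15066 CPM in zBo above medians of 2.85 and 6.17, whereas Hspa1a exceeds 100 CPM in 35 of 47 KT cells and Sat1 in 30 of 47 KT and 75 of 110 zBo cells.

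Several of these genes are known targets of transcription factors that answer inflammation, interferon and heat, and the sequence around their start sites was searched for 4 motifs on both strands. The kappaB motif was GGGA, any 1 base and TTTCC. The core of the interferon-stimulated response element was GAAA, any 2 bases and GAAA, the GAS element was TTCNNNGAA, and the heat shock element was GAA, TTC and GAA with any 2 bases between each. Matches may overlap one another. Promoters of 300 bases, 250 before and 50 after the start, were taken from RefSeq on GRCm38.p6 and matched 60 of the 85 variable genes by symbol. The kappaB motif was in the promoters of 3 of the 60 (Cxcl1, Il6 and Tifa) and in 0.411% of all 32851 promoters, and the heat shock element in 2 (Hspd1 and Hsph1) and 0.603%. The response element core was in 6 against 3.44% and the GAS element in 6 against 8.3%. Counted by gene, as for the variable genes, the kappaB motif was in 0.55% of 2000 genes measured for variation and 1.3% of 77 steady genes, and the heat shock element in 0.95% and 0 of 77. The response element core was in 4.6% and 6.49%, and the GAS element in 8.5% and 7.79%. A match is a description of letters, not a shown binding site. The stretches upstream of 3 of the first 10 variable genes are shown, because they carry the motif nearest to the named response, with the motif in capitals and each read 5′ to 3′ on the strand of the gene. They lie at chr5:30012864-30013108 (plus strand), chr5:90890995-90891239 (plus) and chr5:92348895-92349139 (minus), outside the transcripts.
Il6: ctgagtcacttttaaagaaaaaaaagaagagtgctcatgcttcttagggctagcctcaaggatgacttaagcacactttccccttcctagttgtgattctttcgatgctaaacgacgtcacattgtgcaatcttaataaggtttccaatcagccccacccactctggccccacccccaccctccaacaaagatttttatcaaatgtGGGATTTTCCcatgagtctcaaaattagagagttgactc
Cxcl1: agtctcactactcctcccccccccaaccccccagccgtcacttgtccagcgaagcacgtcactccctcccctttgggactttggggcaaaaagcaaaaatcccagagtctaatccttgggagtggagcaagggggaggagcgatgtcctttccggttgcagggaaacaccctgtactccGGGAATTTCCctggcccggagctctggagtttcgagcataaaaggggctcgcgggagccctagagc
Cxcl10: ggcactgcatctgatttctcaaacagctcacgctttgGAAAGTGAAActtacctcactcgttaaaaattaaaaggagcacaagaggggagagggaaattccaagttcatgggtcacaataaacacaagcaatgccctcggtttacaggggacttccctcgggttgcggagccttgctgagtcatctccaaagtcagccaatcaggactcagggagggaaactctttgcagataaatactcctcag
The kappaB motif began 44 bases before the start of Il6 and 71 before that of Cxcl1, and the response element core 213 before that of Cxcl10. Shorter stretches with the motif and 6 bases on each side are given for Gbp2 (chr3:142620598-142620619, plus) and Hspd1 (chr1:55088058-55088082, minus), as examples of the interferon and heat shock groups.
Gbp2: ttttagTTTCACTTTCactgtc
Hspd1: ggggccTTCCGGAAGGTTCtagaac
The windows of Hspa1a, Hspb1 and Cxcl9 held none of the 4 motifs in these spellings.

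By gene list, heat shock genes held the largest share of variable genes among lists with at least 5 genes of sufficient level: 7 of 12 were variable, against 3.31% of all genes. These were Hspa1a, Hspb1, Hsph1, Dnajb1, Dnaja1, Hsp90aa1 and Hspd1, chaperones and co-chaperones. Hspa8, a constitutive form, and Hspa5 lay within 1 log2 unit of genes of like mean (excess -0.02 and 0.62 in KT, 0.12 and -0.57 in zBo). The summed level of the 13 listed genes ran from 9183 to 203803 CPM in KT (median 31900) and from 2254 to 122114 in zBo (median 14879). The highest cells thus held many times the median in both sets.

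NF-kB response genes followed with 6 of 14 variable, namely Ccl2, Ccl7, Cxcl1, Cxcl10, Il6 and Tnfaip3. Ccl2 ran from 17.1 to 32880 CPM in KT (median 1513) and from 2.42 to 44901 in zBo (median 888). Among immediate early genes, which answer stimuli within minutes, 6 of 15 were variable: Fos, Nr4a1, Atf3, Btg2, Egr2 and Ier3. Fos ran from 60 to 31405 CPM in KT (median 8020) and from 22.5 to 46851 in zBo (median 4970). Egr1, with medians of 4515 and 2469 CPM, did not pass (excess 0.54 and 0.62). Whether such transcripts were present in the marrow or rose during cell isolation was not tested.

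Other lists held fewer variable genes, to be set against 3.31% of all genes. Matrix genes had 3 of 14 (Dcn, Lum and Col3a1), osteogenic genes 3 of 11 (Alpl, Col1a1 and Wif1), interferon genes 2 of 9 (Gbp2 and Irf1) with 3 steady (B2m, H2-D1 and H2-K1), and acute phase and complement genes 1 of 12 (Cfb). Metallothionein and antioxidant genes had 2 of 10 (Hmox1 and Mt1), and Sox9 was the only chondrogenic gene of sufficient level and was variable. The Lepr+ stroma list had 1 of 21, Grem1, an inhibitor of bone morphogenetic proteins, which ran from 0 to 3530 CPM in KT (median 316) and from 0 to 7648 in zBo (median 510). None of 8 adipogenic genes passed, and this, 1 of 21 and 1 of 12 are each near the share over all genes. Col1a1, the main bone collagen gene, had medians of 230 and 6.02 CPM and highest cells of 2755 and 3046; the top cell of zBo was the low-marker cell rich in Dcn. Dcn had an excess of 4.73 in zBo, where that cell held 54.9% of its counts, and without both low-marker cells 85 genes were again variable, 81 of them among the 83 of the original genes still measured.

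**Figure D4:**
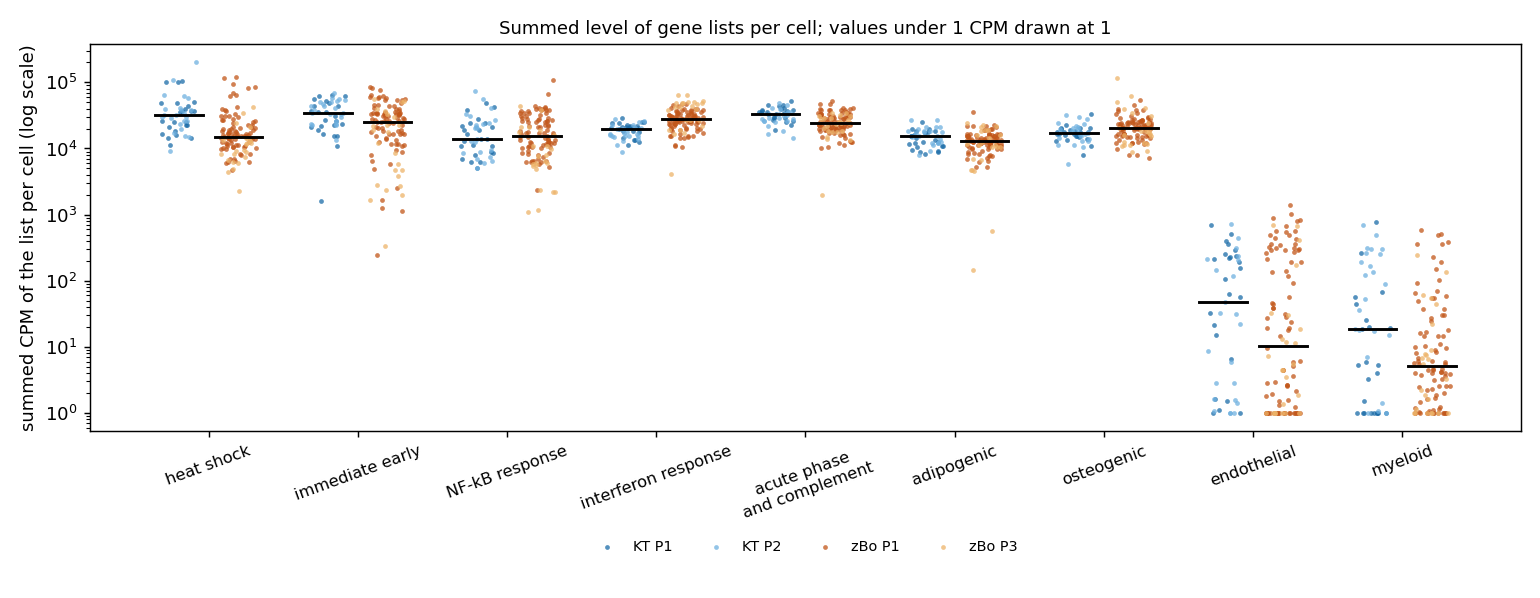
Summed CPM of 9 gene lists in each member cell, on a log scale with values under 1 CPM drawn at 1; points are cells coloured by title set and black bars are medians of KT and zBo. Heat shock sums run from 9183 to 203803 CPM in KT and NF-kB sums from 1080 to 109286 in zBo, and endothelial and myeloid lists lie at medians of 48.5 CPM or less.

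Within each of the heat shock, NF-kB and immediate early lists, genes tended to be high in the same cells. The median Spearman correlation over gene pairs within a list was 0.35 in KT and 0.24 in zBo for heat shock genes, 0.22 and 0.22 for NF-kB genes, and 0.17 and 0.27 for immediate early genes, against 0.0068 and 0.036 over all pairs of 2451 genes. Interferon genes had 0.075 and 0.21, the KT value being close to that of matrix genes (0.077). These are descriptions over 47 KT cells and all but 2 of the 110 zBo cells, which share libraries, sets and amplification. Single pairs varied: Fos and Egr1 had 0.75 in both sets and the neighbouring chemokine genes Ccl2 and Ccl7 had 0.46 and 0.69, but Fos and Nr4a1 had 0.06 and 0.19 and Hspa1a and Dnajb1 0.17 and 0.38. The stromal list had medians of 0.039 and 0.053.

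Between lists, the relation of stress to stromal genes differed between the column sets. Summed heat shock genes against the stromal list gave -0.60 in KT and -0.05 in zBo, and NF-kB genes against it -0.51 and -0.27. The lists also varied with the number of genes with a count in thinned cells. Against that number the stromal list gave 0.36 and 0.42, heat shock genes -0.28 and 0.05, and NF-kB genes -0.37 and 0.07. Its part in the relations between lists was not tested. The sums are shares of 1 total, so a list that takes many counts lowers the others. How far this shaped the correlations between lists was not tested. Summed heat shock and NF-kB lists gave 0.19 and 0.48. Immediate early genes gave 0.06 and 0.43 against heat shock genes, and 0.03 and 0.16 against NF-kB genes. Acute phase and complement against interferon genes gave 0.47 and 0.48. The difference between column sets was not tested.

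The members were compared with Tomato- cells chosen by the same Lepr level, whose median Lepr was 4934 CPM in KT and 4951 in zBo, against 4051 and 3810 in the members. The summed stromal list had medians of 92740 CPM in the members and 97451 in Tomato- cells of KT, and of 90661 against 64871 in zBo. The rule found 69 such cells in KT N1, 56 in KT N2 and 38 in zBo N2. Levels were compared as log2 ratios of CPM + 1 from summed counts, and a gene was called where it differed by over 1.5-fold in the same direction in both column sets, if the higher group had 20 CPM or more and 20% or more of its cells had a count. Of 5657 genes compared, 2.55% were higher and 2.92% lower in the Tomato+ cells. Of the 22 stromal genes 0 were called in either direction, which is near the share over all genes. Medians over the list were -0.01 and -0.06, against 0.004 and -0.003 over the 5657 genes compared. Cxcl12 had ratios of -0.02 in KT and 0.79 in zBo, Kitl -0.06 and -0.38, Adipoq -0.05 and -0.36, and Gas6 0.06 and 0.96. The zBo values rest on a single Tomato- set and on which Tomato+ set it is held against: the median Cxcl12 level was 24574 CPM in zBo N2, 27083 in zBo P3 and 49057 in zBo P1.

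Kit, the receptor gene from which the Cre is driven, had higher summed levels in Tomato+ than in Tomato- cells. In KT its summed level was 43.9 CPM in Tomato+ cells (exact Poisson 95% interval 41.5 to 46.3) against 2.28 in Tomato- cells (1.96 to 2.64), a log2 ratio of 3.77. In zBo the levels were 19.1 (18.3 to 20) and 0.19 CPM (0.06 to 0.45), a log2 ratio of 4.08, and Kit missed the 20 CPM needed for a call there. A count was present in 17 of 47 and 17 of 110 Tomato+ cells, and in 5.6% of KT and 4 of 38 zBo Tomato- cells. Kit was confined to few cells: 6 and 10 members had 5 counts or more, and the highest reached 603 and 634 CPM. Of the summed per-cell CPM of Kit, the 5 highest members held 95.2% in KT and 74.2% in zBo. The intervals cover counting error only and not this spread between cells.

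The called genes that led by size were low and sparsely detected. Fndc1, a fibronectin type III domain gene, stood at 100.7 against 22.9 CPM in KT and 85.8 against 0.96 in zBo, with log2 ratios of 2.09 and 5.47; in zBo it had a count in 45 of 110 Tomato+ and 19 of 38 Tomato- cells. Rfxank, a subunit of the factor that drives class II antigen-presentation genes, had ratios of 2.05 and 4.25. Pak3, Nek9, Tmem164, Plekhg1 and Gucd1 followed, with smaller ratios of 1.23 to 1.80 in KT. For Plekhg1 this differed by set: its KT ratio was -1.26 between the sets numbered 1 and 2.14 between those numbered 2, and without zBo P1 the mean of its KT and zBo ratios was -0.21. Lower in Tomato+ cells were Abcc9, a potassium channel subunit gene also used as a pericyte marker, at 5.64 against 35.4 CPM in KT and 22.6 against 124.95 in zBo (ratios -2.45 and -2.41). Hps5, Gbp6, Tbc1d23, Snrpa1, Nek7, Adcy4 and Zfp715 were the next, and Snrpa1 had ratios of -4.00 and -1.39. Among the lists, Abcc9, the insulin receptor gene Insr (lower) and the growth factor receptor gene Fgfr3 (higher) were the called members.

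These calls rest on how the cells are summarised. When medians of per-cell CPM replaced sums, 39 genes were higher and 16 lower, and only 1 and 3 of them had been called from sums. A minimum of 100 CPM left 4 and 10. Without the highest cell of each gene 95 were higher, 64 of them called before. Myeloid genes summed to a median of 18.5 CPM in Tomato+ and 194.6 in Tomato- cells of KT, and 5.06 against 4.78 in zBo, and Ptprc had a count in 14.4% of the KT Tomato- cells. Without cells that held at least 5 Ptprc or Pecam1 counts, 80.6% of the higher and 79.4% of the lower genes were called again. With zBo limited to the 7 library codes that hold cells of both groups, 84.7% and 92.7% were called again. That limit kept 76 Tomato+ and 38 Tomato- members of zBo and left the KT ratios unchanged. Most cells therefore enter both calls, and cells were still summed over codes, so differences between libraries were not tested.

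**Figure D5:**
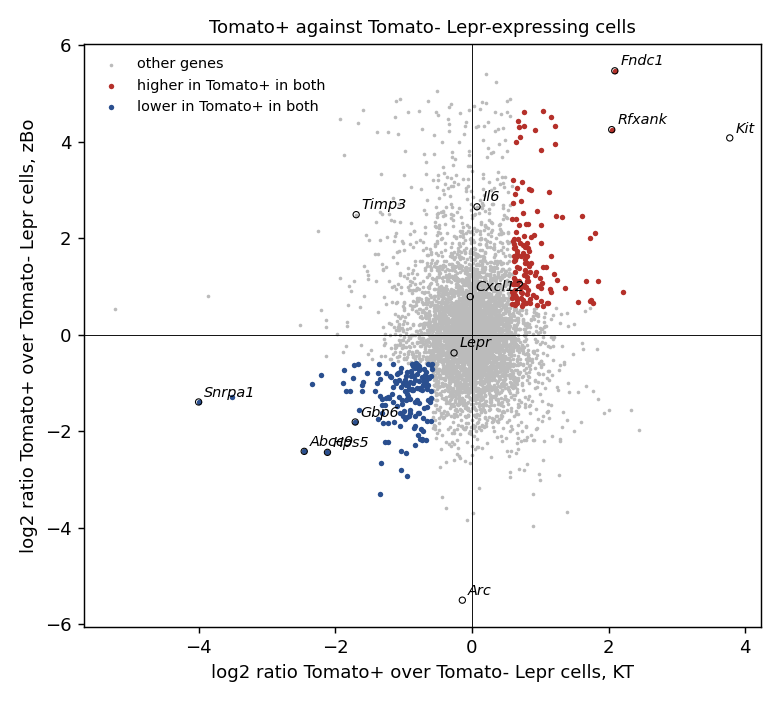
Log2 ratio of CPM + 1 of Tomato+ over Tomato- Lepr-expressing cells, in KT (x axis) and zBo (y axis), for the 5657 genes compared; red and blue points are genes called higher or lower in both, and circled genes are labelled. Cxcl12 lies at -0.02 in KT and 0.79 in zBo, Kit lies at 3.77 and 4.08, and Snrpa1 at -4.00 and -1.39.

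Many genes differed in level between the KT and zBo members. Of 6802 genes, 1399 were over 1.5-fold higher in KT (20.6%) and 1977 in zBo (29.1%); with scaling factors that moved the zero point by 0.108 log2 units they were 1647 and 1672. Every KT cell differs from every zBo cell in column set, so animal, sort and preparation cannot be told apart. Heat shock genes were on the KT side, 12 of 13, with a median log2 ratio of 1.18 over the list. Interferon genes were on the zBo side, 10 of 13 with a median of -0.91, and so were 12 of 19 stroma transcription factors, with a median of -0.71. The median over the 6802 genes was -0.13.

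The largest single differences were of several kinds. Arc, an immediate early gene of neurons, stood at 302 CPM in KT and 5.36 in zBo (log2 ratio 5.58), and Tfrc, the transferrin receptor gene, at 33.8 and 0.03. Pcdhb7 stood at 58.2 and 0.08 CPM. For Cd1d2, C1s2 and Eno1b the difference is uncertain, since each has a near-identical partner whose reads the counting could share: C1s2 stood at 31.5 and 0.02 CPM while C1s1 stood at 901 and 894. Higher in zBo were Xist, at 0.49 and 105.4 CPM with its highest cell in zBo P3 (log2 ratio -6.16, and -0.61 without zBo P3), and Rgs4, a regulator of G protein signalling, at 2.62 and 115.7. Itgbl1, Aspn, Fmod and Tspan11 completed the 6, but 85.1% to 99% of their zBo counts came from the 1 low-marker cell, and without both low-marker cells the log2 ratios that had been -6.36, -6.01, -5.90 and -5.44 became -0.83, -2.49, -3.29 and -2.85.

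The 28 Tomato+ cells under the Lepr level were a mixed group. Their Lepr ran from 23.8 to 976 CPM with a median of 140. Cxcl12 ran from 180.7 to 57046 CPM with a median of 14701, and 18 of the 28 exceeded 10% of the members' median. Adipoq had a median of 120 CPM and did so in 11, and Pdgfra had a median of 11.4 CPM. With the level set at 500 CPM the KT members would again number 47, and at 2000 CPM there would be 43 in KT and 94 in zBo.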

How the data were processed

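Each of the 388 samples is 1 cell, and 1 table holds 25000 genes. The deposited values are expected counts, per the file headers, some of which name RSEM output; 4.91% of values above 0 were fractions and were rounded here. The submitters' processing notes list the build GRCm38 and, without their roles, StringTie 1.3.3b, HTSeq 0.6.0 and HISAT. Which gene models were counted is not stated in the material at hand. Amplified cDNA of polyA RNA was sequenced, per the labels' protocols, which describe neither molecular identifiers nor strand, so overlapping and near-identical genes may share reads. Depth ran from 18031 to 3833473 counts per member cell; no doublet caller was run. Groups were taken from the labels, and 0 columns were left unused.

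Counts were scaled to CPM per cell, or summed per group for ratios with a pseudocount of 1. Cells were thinned to 150000 counts for CVs (numpy 2.4.6, pandas 2.3.3, scipy 1.17.1). Exon lengths and coordinates came from GENCODE M21 (24636 symbols matched). edgeR 4.0.16 gave scaling factors only. The steps were tested on simulated data. Members and gene lists were chosen with earlier results of these data known. Named genes were the 7 markers, the 10 most and least variable, the 15 highest per kilobase, the first 8 in each direction against Tomato- cells (1 is not reported here), the first 6 in each direction between KT and zBo, up to 4 per list, the gate genes and the closest correlates of the 10 most variable; genes with the symbols of mitochondrial, ribosomal protein (Rpl, Rps, Mrp), predicted (Gm, Rik) and pseudogenes were left out of the ranked names; Fau, a ribosomal protein gene with another kind of symbol, stayed. Further list members were named after their values were seen.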

Additional observations from a re-analysis of the deposited data

How the results depend on the processing

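Member counts, marker medians, variable and steady calls and ratio calls were recomputed under those of the following that apply: other Lepr levels, thinning depths, level minimums, pseudocounts, scaling, per-cell summaries and left-out title sets. Correlations, motif counts and list sums were not recomputed; removal of cells under 5000 CPM of Cxcl12 was chosen after seeing the data. Member cells in zBo fell to 94 with Lepr at 2000 CPM. As shares of the genes tested under each setting, steady genes (3.9%) made up 3.39% with a minimum mean of 20 CPM and 3.62% with 100 CPM (the number of genes tested changes with the minimum, and the number called with it), and variable genes (3.31%) made up 2.19% without zBo P1. Genes higher in Tomato+ cells (2.55%) made up 3.27% by medians of per-cell CPM, 0.285% with a minimum of 100 CPM, 1.92% without the highest cell of each gene and 3.90% without KT P1. Genes lower (2.92%) made up 1.34% by medians, 0.713% with a minimum of 100 CPM, 4.42% without KT P1 and 4.71% without KT P2. Genes higher in KT (20.6%) made up 20.8% with a minimum of 100 CPM and 32.7% without zBo P1, and those higher in zBo (29.1%) made up 8.98% by medians and 23.97% with a minimum of 100 CPM. The cause of these shifts was not tested. Without zBo P1, Timp3 had an excess of -0.50, Gbp2 0.23 and Uqcrh -0.91, and the mean ratio of Plekhg1 was -0.21. Sat1 had 0.41 without KT P2, Gbp2 0.78 with Lepr at 2000 CPM, and Fau -0.90 with Lepr at 500 CPM and -0.9995 with the lower thinning depth. No zBo ratio could be formed without zBo N2, the only Tomato- set of zBo. No paired analysis was possible because each group is 1 sample with no animal named, and cell numbers do not pair cells. Depth limits what can be said of genes with few counts: no count in a shallow cell does not show that the transcript is absent.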
